A study of Mus musculus with 6 samples.

Results

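Acute phase reactants are secreted proteins whose production changes during inflammation and injury. 8 mouse genes of this kind were followed by their symbols among the 52636 genes quantified: Itih4 and Itih5 (heavy chains of the inter-alpha-trypsin inhibitor family), Serpina3n (a serine protease inhibitor), Lcn2, Cp, Hp, Saa3 and Orm1. All 8 were in the table, and 5 had enough counts to be tested.

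The libraries came from vestibular epithelium of male 129S1/SvImJ mice, 3 Control animals that drank plain water and 3 IDPN animals that drank 3,3'-iminodipropionitrile, a nitrile toxic to sensory hair cells (HCs), at 30 mM for 8 weeks. Each library held the pooled utricles and cristae (the organs that sense linear and angular motion) of 1 animal, so it mixed HCs, supporting cells, stroma and other cells. Libraries were made from polyadenylated RNA without strand information or molecular identifiers, and 1 batch is labelled for them all. In the sample titles, 1 code stem is common to the Control animals and absent from the IDPN animals. An effect of whatever that stem marks and an effect of IDPN cannot be told apart. IDPN 2 and IDPN 3 share another stem, and IDPN 1 has a stem of its own. What the stems mark is not given.

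Most plasma acute phase proteins are made by hepatocytes, where interleukin-6 acts through STAT3, and interleukin-1 through NF-kB and C/EBP factors, to raise their transcription. Several are also made outside the liver: Lcn2 and Serpina3n, for instance, are widely used as markers of reactive astrocytes in the nervous system. The proteins have distinct tasks. Inter-alpha-trypsin inhibitor heavy chains bind hyaluronan and stabilize the extracellular matrix, although the Itih4 product circulates without the bikunin light chain. Serpina3n blocks serine proteases such as cathepsin G and granzyme B. Lipocalin 2 (Lcn2) captures bacterial siderophores, ceruloplasmin (Cp) carries copper and oxidizes iron, haptoglobin (Hp) binds free haemoglobin, serum amyloid A3 (Saa3) is a lipid-binding protein of inflamed tissue and orosomucoid (Orm1) is a carrier of lipophilic ligands.

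The libraries held from 40474847 to 43566332 estimated counts in total, and between 15701 and 16812 genes had at least 10 counts. All 15 HC markers and 14 of 15 supporting cell markers were tested. IDPN 2 stood apart in stress-responsive genes: Junb, an immediate early gene, was at 19525 normalized counts there against 151.4 in IDPN 1, 307.0 in IDPN 3 and 136.2 to 175.9 in Control. Where a call was lost without IDPN 2, this is stated. Among the 17650 genes tested with DESeq2, 410 (2.32%) were called upregulated and 604 (3.42%) downregulated in IDPN, where a call needed a Benjamini-Hochberg adjusted p (Padj) under 0.05 and a fold change above 1.5. Normalized counts are estimated counts divided by the median-of-ratios size factor of the library, and fold changes are relative to the typical gene. Size factors proportional to the total counts shifted the median log2 fold change by 0.25.

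The DESeq2 test called 1 of the 8 genes upregulated (Itih4) and 1 downregulated (Serpina3n), where 5.75% of all genes tested were called in either direction. The edgeR test called the same 2 genes, against 1.02% of its genes upregulated and 2.19% downregulated, and so did DESeq2 with total-count scaling, against 3.64% and 1.28%. Itih5 had a Padj under 0.05 but a fold change under 1.5. Lcn2 and Cp were not called, and Saa3, Hp and Orm1 were near the detection limit in both groups. The 5 tested genes had a median log2 fold change of −0.24, against 0.02 over all genes tested, with 1 positive and 4 negative values. Under total-count scaling 3 were positive and 2 negative, with a median of 0.02 against 0.27 over all genes tested. In these bulk libraries, fewer cells of a type and less RNA per cell cannot be told apart.

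The sequences directly upstream of the start sites of the called genes are shown because these genes moved in opposite directions. They are the 250 bases before the RefSeq start (GRCm38.p6, reference genome, so alleles of the 129S1/SvImJ strain are not shown). Itih4 lies at chr14:30886226-30886475 on the plus strand, and the capitals mark a match to the STAT letters TTCNNNGAA. Serpina3n lies at chr12:104406458-104406707 on the plus strand and has no capitals because none of the searched motifs matched.
Itih4: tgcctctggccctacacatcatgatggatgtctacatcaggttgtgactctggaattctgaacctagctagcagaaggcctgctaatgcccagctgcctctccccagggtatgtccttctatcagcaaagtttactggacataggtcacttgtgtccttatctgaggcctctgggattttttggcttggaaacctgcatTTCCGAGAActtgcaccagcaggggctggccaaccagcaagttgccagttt
Serpina3n: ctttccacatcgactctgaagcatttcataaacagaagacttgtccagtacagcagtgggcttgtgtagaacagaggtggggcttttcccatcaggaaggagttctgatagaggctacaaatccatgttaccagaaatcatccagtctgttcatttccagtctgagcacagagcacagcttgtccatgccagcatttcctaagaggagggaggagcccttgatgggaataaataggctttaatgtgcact
The search covered both strands from 250 bases before to 50 bases after the start, for STAT (TTCNNNGAA), C/EBP (TTGCNNAA), NF-kB (GGGA and TCC with any 3 bases between them) and the interferon element ISRE (TTTC and TTTC with any 2 bases between them). The table of 32851 mouse promoters held the STAT letters in 8.3%, the C/EBP letters in 10.8%, the NF-kB letters in 4.59% and the ISRE letters in 3.44%. Of the 8 genes, 6 had an entry and 4 had a match to any of these motifs. The share of all promoters with a match to any of them was not computed, so this count of genes has no background beside it. The match of Itih4 began 51 bases before the start. Lcn2 had a C/EBP match that began 216 bases before its start, Saa3 had a C/EBP match at 99 and an ISRE match at 125 bases before, and the second annotated start of Cp had a C/EBP match 70 bases before it. Itih5, Serpina3n and the first annotated start of Cp had no match. A match is a description of these letters and does not show that a factor binds.

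Itih4 (ENSMUSG00000021922.16, GRCm38 chromosome 14, 30886476 to 30902353, plus strand) was the upregulated gene of the set. Its normalized counts were 31.5, 26.5 and 8.9 in the 3 Control libraries, and in the IDPN libraries they were 100.1, 248.0 and 201.6. Every IDPN library lay above every Control library, as for 11.1% of all genes tested, with Control 3 the lowest and IDPN 2 the highest. The mean rose from 22.3 ± 11.9 to 183.2 ± 75.6 (SD, n = 3 each), a log2 fold change of 3.06 (SE 0.46, DESeq2 Padj = 3.66e-09), which is 8.34-fold with a 95% interval of 4.49 to 15.5. Among the 410 upregulated genes Itih4 ranked 30 by fold change. Pooled over the libraries of a group, it took 59 counts in Control (0.461 CPM, counts scaled to the library total, exact Poisson 95% interval 0.351 to 0.594) and 584 in IDPN (4.65, interval 4.28 to 5.04). These intervals cover counting error only. The TPM scale corrects for the library total and for the merged length of all annotated exons of a gene. That length can exceed the length of a single transcript, so TPM comparisons between genes are approximate. On this scale the level of Itih4 was 0.27 ± 0.113 in Control and 2.93 ± 0.91 in IDPN (SD, n = 3), below the IDPN levels of Lcn2, Serpina3n, Itih5 and Cp. The edgeR test called it too (log2 fold change 3.07, adjusted p = 0.00938). It was called in 14 of 14 alternative settings, with log2 fold changes from 2.66 to 3.39.

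**Figure D1:**
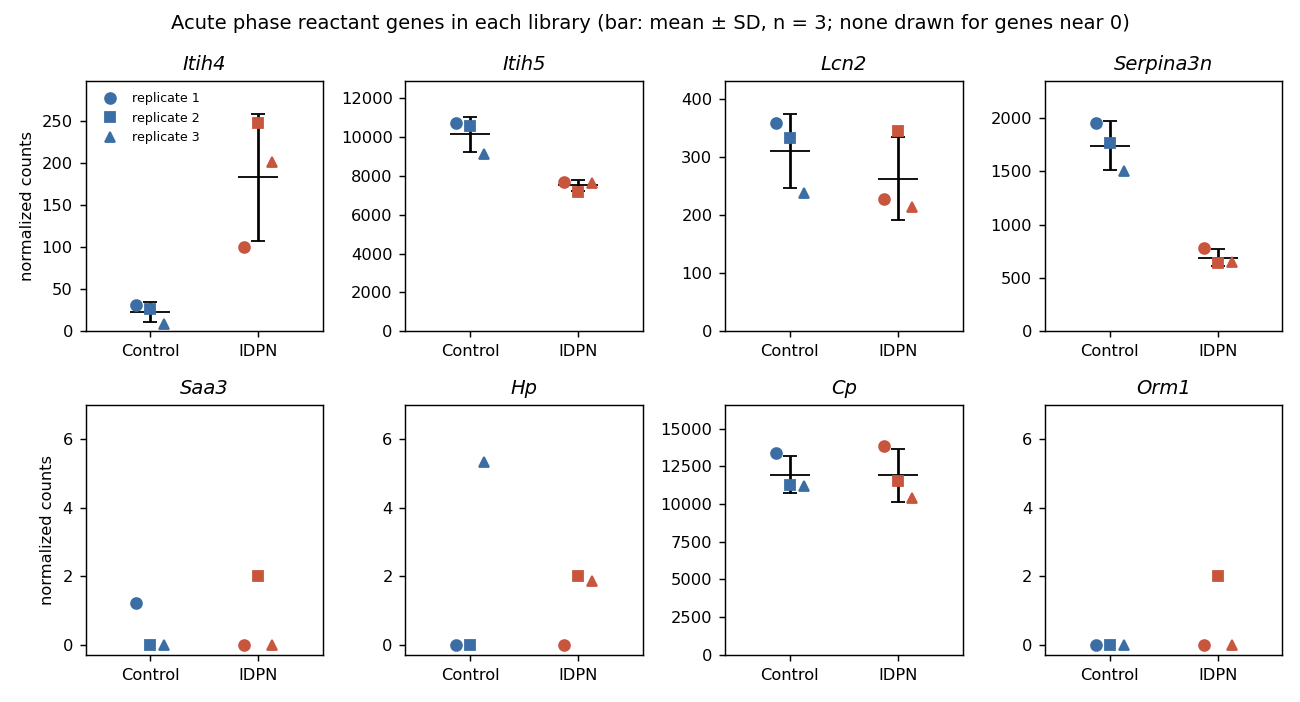
Normalized counts (vertical axis, 1 scale per gene) of the 8 acute phase genes in the 3 Control (blue) and 3 IDPN (red) libraries. Symbols mark replicates, and horizontal bars with whiskers give the mean ± SD for genes above the detection limit. The Itih4 points of IDPN lie between 100.1 and 248.0, above all Control points, and the Serpina3n points of IDPN lie between 637.6 and 778.8, below all Control points.

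Serpina3n (ENSMUSG00000021091.8, chromosome 12, 104406729 to 104414329, plus strand) moved the other way. Normalized counts were 1955, 1765 and 1505 in the 3 Control libraries, and in the IDPN libraries they were 778.8, 637.6 and 648.6. All IDPN libraries were lower than all Control libraries, as for 11.4% of all genes tested, and the spread within each group was small beside the gap. The mean fell from 1741.4 ± 226 to 688 ± 78.5 (SD, n = 3 each), a log2 fold change of −1.34 (SE 0.18, DESeq2 Padj = 2e-11), which is 2.53-fold lower. Serpina3n ranked 180 among the 604 downregulated genes. It was called with edgeR (adjusted p = 0.00135) and under total-count scaling (log2 fold change −1.06, DESeq2 Padj = 0.000364), and in 14 of 14 alternatives. In TPM the level was 39.8 ± 2.77 in Control and 20.6 ± 5.1 in IDPN (SD, n = 3).

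Serpina3n belongs to a cluster of similar serpin genes, and reads that match several of them are divided by the estimation. Of the 14 annotated Serpina3 genes, 12 had at most 10 counts in every library. Serpina3n took 97.4%, 95.6% and 94.0% of the counts of the family in the Control libraries, and 94.4%, 89.8% and 86.4% in the IDPN libraries. The only other member with more counts was Serpina3g, at 35.2 to 83.6 normalized counts in Control and 40.6 to 89.6 in IDPN (log2 fold change 0.11, DESeq2 Padj = 0.949).

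Itih5 (chromosome 2, 10153571 to 10256529, plus strand) was the most abundant heavy chain of its family. Its normalized counts were 10751, 10568 and 9128 in the 3 Control libraries, and in the IDPN libraries they were 7718, 7200 and 7667. Each IDPN library was below each Control library, as for 11.4% of all genes tested. The log2 fold change was −0.43 (SE 0.15, DESeq2 Padj = 0.0486), a 1.35-fold lower level that did not reach the 1.5-fold threshold. Of all genes tested, 3.9% had a Padj under 0.05 with a lower level in IDPN. Total-count scaling gave a log2 fold change of −0.16 (DESeq2 Padj = 0.683), and edgeR an adjusted p of 0.177. In TPM, Itih5 stood at 60.9 ± 6.14 (Control) and 58.5 ± 9.68 (IDPN; SD, n = 3 each).

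The other heavy chains were lower in TPM than Itih5 in Control, with 24.0 ± 2.58 for Itih2 and 0.374 ± 0.0424 for Itih3 (SD, n = 3 each). Itih2 was at 1816, 1698 and 1523 normalized counts in Control and 1619, 1499 and 1431 in IDPN (log2 fold change −0.15, DESeq2 Padj = 0.732, and 0.12 under total-count scaling). Itih3 was at 29.1, 34.6 and 23.1 in Control and 14.1, 10.0 and 4.67 in IDPN, and its log2 fold change of −1.58 was not called (DESeq2 Padj = 0.155). Itih1 had no counts in any library. Itih5 took 80.2% to 85.7% of the counts of the family in the 6 libraries.

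**Figure D2:**
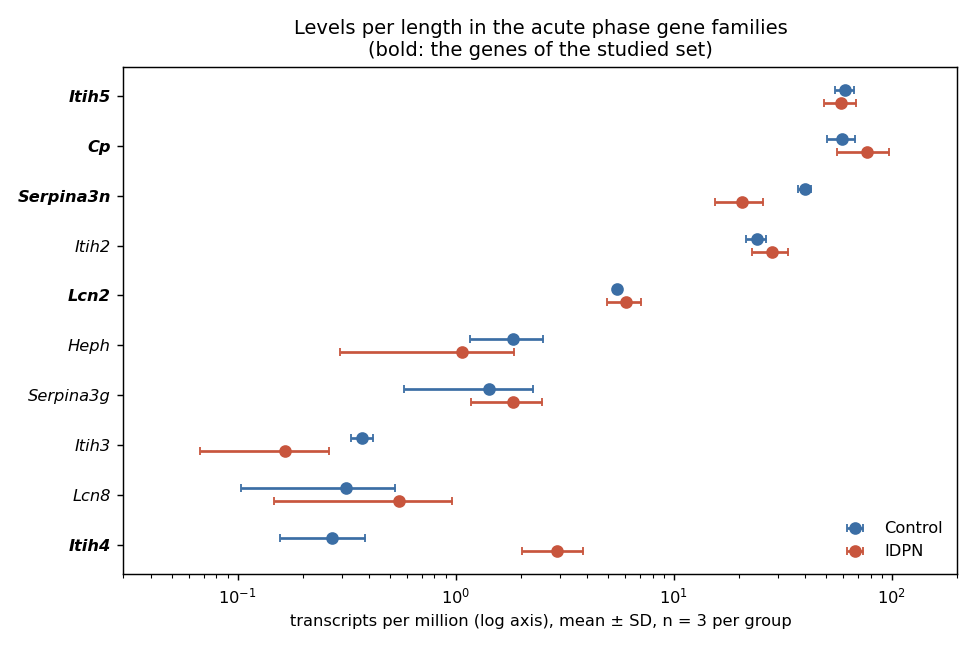
TPM (horizontal log axis) of the family genes with a mean level above 0.2 TPM over both groups, as mean ± SD of 3 libraries for Control (blue) and IDPN (red), ordered by the Control mean. Itih5, Cp and Serpina3n lead in Control, and Itih4 is at 0.27 TPM in Control and 2.93 TPM in IDPN.

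Lcn2 (chromosome 2, 32384633 to 32388252, minus strand) was at 359.0, 332.4 and 237.5 normalized counts in the 3 Control libraries, and at 228.4, 345.4 and 214.6 in the IDPN libraries. The groups overlapped, since IDPN 2 lay within the Control range. The log2 fold change was −0.24 (SE 0.26, DESeq2 Padj = 0.742), and the 95% interval of the IDPN to Control ratio ran from 0.594 to 1.21. Total-count scaling gave 0.02 (DESeq2 Padj = 0.975). Lcn2 took 95.4% to 99.1% of the counts of the 10 lipocalin genes in every library. Its TPM was 5.51 ± 0.175 (Control) and 6.02 ± 1.06 (IDPN; SD, n = 3 each). The siderophore receptor Slc22a17 was not called (log2 fold change 0.37, DESeq2 Padj = 0.265). Each of its IDPN libraries (2454, 2693 and 2356 normalized counts) lay above each Control library (1529, 1993 and 2272), as for 11.1% of all genes tested.

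Cp (chromosome 3, 19957054 to 20009145, plus strand) was at 13363, 11289 and 11213 normalized counts in the 3 Control libraries, and at 13817, 11501 and 10389 in the IDPN libraries. The Control range lay inside the IDPN range. The log2 fold change was −0.01 (SE 0.17, DESeq2 Padj = 0.991), with a 95% interval of the ratio from 0.795 to 1.25. Total-count scaling gave 0.27 (DESeq2 Padj = 0.528). In TPM, Cp stood at 59.4 ± 8.75 (Control) and 76.9 ± 20.7 (IDPN; SD, n = 3 each), and the ± SD ranges of Cp and Itih5 overlapped in both groups. In exons, 108 bases of Cp overlap Hps3 on the other strand, which libraries without strand information cannot separate.

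Hp, Saa3 and Orm1 were near the detection limit. Saa3 had 1, 0 and 0 counts in the 3 Control libraries, and 0, 2 and 0 in the IDPN libraries. Hp had 0, 0 and 6 in Control and 0, 2 and 2 in IDPN. Orm1 had 0 counts in all Control libraries and 0, 2 and 0 in IDPN. A count of 3 corresponds to 0.0689 to 0.0741 CPM in a single library, and the 0 counts of Orm1 in the pooled Control libraries allow a level of up to 0.0234 CPM at that limit of 3 counts, or 0.0288 CPM as the upper bound of the exact two-sided Poisson 95% interval. No ratio is given for these genes, and a difference between groups was not detectable at this depth. The related genes were as low: the 4 Saa genes and the 3 Orm genes had at most 10 counts in every library.

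The wider set of 45 positive acute phase and injury-response genes included 19 that were tested. It held 2 called upregulated and 0 downregulated, against 2.32% and 3.42% of all genes tested. The median log2 fold change was 0.53, against 0.02 over all genes tested. In the list 25 genes had at most 10 counts in every library, among them 11 at 0 in all (Fga, Fgb, Fgg and Crp are examples). Ptx3, a pentraxin that binds pathogens and heavy chains of hyaluronan matrices, rose from 95.8, 112.0 and 104.1 to 179.6, 223.9 and 219.3 normalized counts (log2 fold change 1.00, SE 0.26, DESeq2 Padj = 0.00399). It was called in 13 of 14 alternatives and by edgeR (adjusted p = 0.0379). Plaur, the urokinase receptor, was also called (log2 fold change 2.58, SE 0.74, DESeq2 Padj = 0.0123), but its counts of 15.7, 158.6 and 28.0 in IDPN against 15.8, 9.23 and 8.9 in Control rest on IDPN 2. Without IDPN 2 its log2 fold change was 0.96 (DESeq2 Padj = 0.695). It was not called without Control 2 (DESeq2 Padj = 0.106) or Control 3 (0.0605) either, and edgeR gave an adjusted p of 0.142. Lbp, which presents bacterial lipopolysaccharide, was at 219.5, 342.8 and 273.1 in Control and 415.4, 530.1 and 397.6 in IDPN (log2 fold change 0.68, DESeq2 Padj = 0.0531), and the C1 inhibitor Serping1 had a log2 fold change of 0.53 (DESeq2 Padj = 0.0532). The complement gene C4b, at 306.2, 889.6 and 473.2 in IDPN and 302.0, 371.7 and 230.4 in Control, had 0.88 (DESeq2 Padj = 0.0847). Total-count scaling called 5 genes of the list upregulated, adding Lbp, C4b and Serping1, and edgeR called Ptx3 alone. Leaving out IDPN 1 gave 4 upregulated and 1 downregulated, and leaving out Control 3 or IDPN 2 gave 1 upregulated.

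Of the negative acute phase genes, whose liver expression falls in inflammation, 9 were listed and 5 tested. DESeq2 called 0, edgeR called 0, and 0 had an unadjusted p under 0.05. The median log2 fold change was −0.12. Trf (transferrin) and Rbp4 (retinol-binding protein) were abundant. Trf had a log2 fold change of −0.12 (DESeq2 Padj = 0.829, and 0.15 under total-count scaling) and Rbp4 one of −0.31 (DESeq2 Padj = 0.43). Fetub had −0.42 (DESeq2 Padj = 0.924). The 2 positive values were those of Ttr (1.65, SE 1.65, DESeq2 Padj = 0.703) and Apoa1 (0.59, DESeq2 Padj = 0.867). Fetub, with 4, 8 and 4 counts in Control and 10, 1 and 4 in IDPN, was too low for the edgeR filter. So was Apoa1, with 1, 10 and 4 in Control and 11, 6 and 10 in IDPN. Ttr had 3 counts in Control 1 against 1082 in Control 2 and 1831 in Control 3. These 3 fold changes are therefore uncertain. Igfbp3 was not tested, because the DESeq2 filter for outlying counts removed it. It was at 1064, 3278 and 3871 normalized counts in Control and 2973, 26689 and 2504 in IDPN. Alb, encoding albumin, had no counts in any library.

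The inducing signals came next. The list held 37 genes of IL-6, IL-1, JAK-STAT3, C/EBP and NF-kB signalling, of which 30 were tested. DESeq2 called 0 and edgeR called 0. Junb belongs to this list but was not tested, because the DESeq2 filter for outlying counts removed it. Its log2 fold change was 5.41 (SE 1.69), with the high value in IDPN 2, and edgeR gave an adjusted p of 0.0998. Of the 30 tested, 4 had an unadjusted p under 0.05, all higher in IDPN, where 7.77% of all genes tested were higher and 9.15% lower at that threshold, and total-count scaling called 1, Socs3. Leaving out Control 3, IDPN 1 or IDPN 3 gave 1, 2 and 3 calls. The median log2 fold change was 0.38, against 0.02 over all genes tested. Il6 had 0 counts in every library and Il1b was near the detection limit. Stat3, the transcription factor downstream of IL-6, was at 2332, 2345 and 2413 in Control and 2536, 4333 and 2550 in IDPN (log2 fold change 0.41, DESeq2 Padj = 0.309). Its feedback inhibitor Socs3 was at 156.5, 91.2 and 169.0 in Control and 187.0, 703.8 and 180.1 in IDPN (log2 fold change 1.36, DESeq2 Padj = 0.3). For both genes IDPN 2 was the highest library by far. Cebpb was at 0.0, 6.93 and 25.8 in Control and 43.0, 344.4 and 143.7 in IDPN (log2 fold change 4.01, SE 1.52, DESeq2 Padj = 0.0994), Cebpd had 0.69 (DESeq2 Padj = 0.361) and Nfkbiz 0.29 (DESeq2 Padj = 0.726). None of these was called.

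Partners of the inter-alpha-trypsin inhibitor family were listed because Itih4 and Itih5 belong to that family. Whether any of them acts with Itih4 was not tested. In the list of 15 hyaluronan and inhibitor genes, 10 were tested and 3 were called upregulated, against 2.32% of all genes tested. The edgeR test called 1, Ptx3, against 1.02% of its genes. The median log2 fold change was 0.20. Ptx3 is described above. Lyve1, a hyaluronan receptor of lymphatic vessels and tissue macrophages, was at 69.1, 116.6 and 146.8 in Control and 225.9, 378.5 and 217.4 in IDPN (log2 fold change 1.30, SE 0.33, DESeq2 Padj = 0.00251). It was called in 11 of 14 alternatives, and not by edgeR (adjusted p = 0.0636) or without IDPN 2 (log2 fold change 0.99, DESeq2 Padj = 0.0847). Has1, a hyaluronan synthase, had 1.21, 3.46 and 0.0 in Control and 3.31, 36.1 and 19.6 in IDPN (log2 fold change 3.72, SE 1.22, DESeq2 Padj = 0.0396) and was called in 5 of 14 alternatives. Without IDPN 2 it had no Padj, and it was not called without Control 1 (DESeq2 Padj = 0.145), Control 2 (0.0702), Control 3 (0.116) or IDPN 3 (0.179). Its log2 fold change was 2.92 to 5.20 in these 5 fits. Ambp, which encodes the bikunin light chain, had no counts in any library. Tnfaip6, which transfers heavy chains to hyaluronan, had a log2 fold change of 1.24 (SE 0.64, DESeq2 Padj = 0.299), and the hyaluronan receptor Cd44 had −0.57 (DESeq2 Padj = 0.424).

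For the iron side, 22 genes of iron, haem and siderophore handling were listed and 21 tested, with a median log2 fold change of 0.03. DESeq2 called 1 upregulated and 1 downregulated, against 2.32% and 3.42% of all genes tested. Lrp2, the megalin receptor that takes up Lcn2 among other ligands, was upregulated from 2785, 2400 and 2930 to 5398, 4078 and 4806 normalized counts (log2 fold change 0.82, SE 0.17, DESeq2 Padj = 9.18e-05, edgeR adjusted p = 0.024), and was called in 13 of 14 alternatives. Heph, hephaestin, a ferroxidase related to Cp, was at 266.8, 255.1 and 342.5 in Control and 215.2, 96.4 and 71.9 in IDPN (log2 fold change −1.17, SE 0.35, DESeq2 Padj = 0.0205). It was called in 6 of 14 alternatives, not by edgeR (adjusted p = 0.133), and lost its call in 5 of 6 fits that left out a library, those without Control 1, 2 or 3 (DESeq2 Padj = 0.0843, 0.0882 and 0.116) and without IDPN 2 or 3 (0.139 and 0.185). In these 5 fits its log2 fold change was −1.25 to −0.89. Under total-count scaling it was not called (−0.90, DESeq2 Padj = 0.212). Cd163, the receptor for haptoglobin-haemoglobin complexes, had 46.1, 56.6 and 31.1 in Control and 105.9, 61.2 and 70.9 in IDPN (log2 fold change 0.84, DESeq2 Padj = 0.257). The iron exporter Slc40a1 had a log2 fold change of −0.13 (DESeq2 Padj = 0.895).

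Of 13 proteases and receptors that act with these proteins, 6 were tested and 1 was called downregulated, against 3.42% of all genes tested. Tlr4, the receptor for lipopolysaccharide, fell from 271.7, 292.0 and 342.5 to 187.0, 118.5 and 158.6 (log2 fold change −0.96, SE 0.25, DESeq2 Padj = 0.00431, edgeR adjusted p = 0.0492), and was called in 12 of 14 alternatives. Under total-count scaling it was not called (−0.71, DESeq2 Padj = 0.215). The median of the list was 0.13. Ctsg, Elane and Gzmb, whose products Serpina3n or related serpins inhibit, had no counts.

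**Figure D3:**
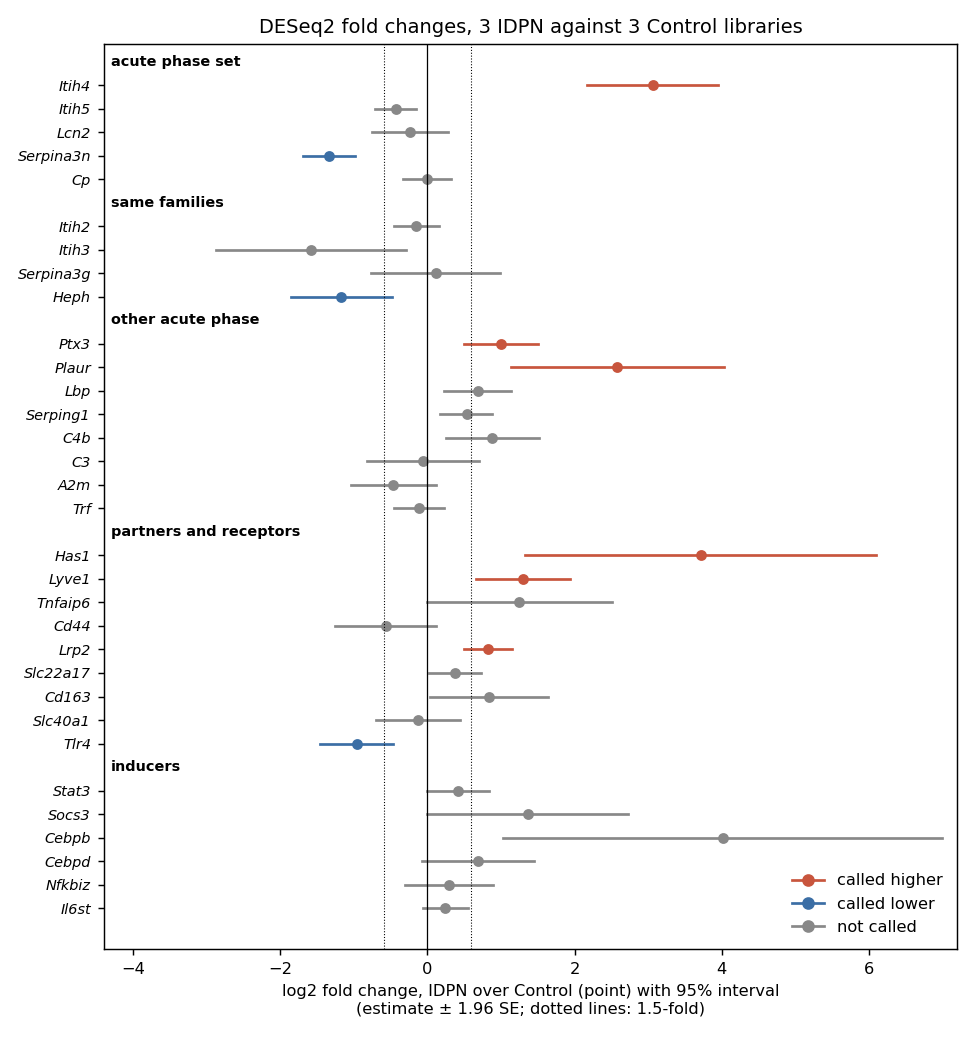
DESeq2 log2 fold change of IDPN over Control (point) with 95% interval for the 5 tested genes, family members, other acute phase genes, partners and inducers. Red marks genes called higher, blue those called lower and grey those not called, and dotted lines mark 1.5-fold. Itih4 stands at 3.06 and Serpina3n at −1.34, and the inducers are not called.

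Cell type markers were compared because the tissue is a mixture. Their DESeq2 calls stand beside 2.32% of all genes tested called upregulated and 3.42% called downregulated. Neutrophil markers, listed because neutrophils store lipocalin 2 and haptoglobin, were near the detection limit: Elane, Ctsg and Ly6g had no counts, and the summed normalized counts of the 15 genes were 56.1 to 75.0 in Control and 42.9 to 101.4 in IDPN. No neutrophil marker was called with DESeq2 or edgeR, and 0 of the 6 tested had an unadjusted p under 0.05. Of the hepatocyte markers, Alb, Apoa2 and Fgb had no counts. In that list of 11, Ttr carried most of the summed counts, at 3.64, 1249 and 1629 in Control and 1494, 1444 and 6084 in IDPN, and Cyp2e1 was called lower (log2 fold change −2.17, DESeq2 Padj = 0.0407). It was not called by edgeR (adjusted p = 0.132), under total-count scaling (−1.89, DESeq2 Padj = 0.134) or without Control 2, Control 3, IDPN 2 or IDPN 3.

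Macrophage markers were higher in sum in every IDPN library, from 6248 to 7963 in Control and from 8837 to 13463 in IDPN (two-sided exact permutation p = 0.10, the smallest that 3 against 3 libraries allow), and 1 of 14 was called (Lyz2, log2 fold change 0.77, DESeq2 Padj = 0.00401). The Lyz2 call was lost with edgeR (adjusted p = 0.0708) and without IDPN 2. The part of macrophages in the levels of Itih4, Lyve1 and Cd163 was not tested. Erythroid markers were called for 4 of the 5 tested, Hba-a1, Hba-a2, Hbb-bs and Alas2, with 16166 to 36635 in Control and 34690 to 49092 in IDPN in sum (exact permutation p = 0.20), and edgeR called 0. Without Control 1, IDPN 1 or IDPN 2 0 were called, and without Control 3 or IDPN 3 1 was called. Haemoglobin is the ligand of Hp, which was near the detection limit.

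HC markers were lower in IDPN in sum, from 813547 to 1065385 in Control and from 589992 to 793827 in IDPN (exact permutation p = 0.10), and 9 of 15 were called: Pou4f3, Gfi1, Otof, Tmc1, Calb2, Ocm, Ptprq, Slc17a8 and Lhfpl5. Supporting cell markers were lower in sum, from 274334 to 385194 in Control and from 185487 to 228804 in IDPN (exact permutation p = 0.10). By gene they were mixed. Of the 14 tested, 5 had a positive and 9 a negative log2 fold change, against 1 and 14 of the 15 HC markers. Gjb6 was called by DESeq2 but not by edgeR (adjusted p = 0.069). The part of the HC and supporting cell markers in the lower levels of Serpina3n and Itih5 was not tested. Total-count scaling called 5 HC markers and moved the log2 ratio of the summed counts to −0.29. Among the stroma markers Postn was called higher, but not by edgeR (adjusted p = 0.144) or without Control 1, Control 2, IDPN 1 or IDPN 3, and Otos lower. Kdr among the endothelium, Kit among the melanocyte and Sox10 among the Schwann cell markers were the genes called by DESeq2 in their lists. Kdr and Kit were lower and Sox10 higher. A positive log2 fold change was found for 2 of 8 endothelium, 7 of 8 melanocyte and 3 of 8 Schwann cell markers. Kit thus went against the rest of its list, and Sox10 against most of its list. Total-count scaling kept the calls of Kit and Sox10, lost that of Kdr (−0.88, DESeq2 Padj = 0.078), and called Tie1 of the endothelium and Dct, Tyrp1, Tyr and Mlana of the melanocyte markers higher. In the dark and transitional cell list and in the airway and middle ear secretory epithelium list DESeq2 called 0 and edgeR 0. At an unadjusted p under 0.05, where all genes tested gave 7.77% higher and 9.15% lower, there were 1 higher and 2 lower of 8 tested in the first, and 1 higher and 1 lower of 3 tested in the second, with median log2 fold changes of −0.01 and −0.41. Without Control 3, 2 dark and transitional cell markers were called lower, and without IDPN 3, 1 was. The airway list had 1 gene called higher under total-count scaling (Krt5) and 1 called lower without IDPN 3. The medians of the other marker lists were −0.70 for HCs, −0.23 for supporting cells, 0.52 for macrophages, 0.83 for erythroid cells, 0.59 for hepatocytes, −0.13 for neutrophils, 0.18 for stroma, −0.06 for endothelium, 0.49 for melanocytes and −0.26 for Schwann cells.

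The genes whose pattern over the 6 libraries was most like that of each called gene were found by Pearson correlation of log2(normalized count + 1) among 11770 genes with a mean of at least 100. These correlations describe 6 points that share libraries and group, and no p is attached. Itih4 was nearest to Nov (r = 0.988), D10Wsu102e (0.987) and Axl (0.987), and 62 genes had r of at least 0.95. Nov, a secreted matricellular protein, rose from 2555, 2156 and 1577 to 5980, 8342 and 7550 normalized counts (log2 fold change 1.80, SE 0.20, DESeq2 Padj = 7.18e-16). Axl was not called (log2 fold change 0.27, DESeq2 Padj = 0.403). Serpina3n was nearest to Kifap3 (0.999), Spock3 (0.998) and Drc3 (0.997), with 237 genes at r of at least 0.95. Spock3, a proteoglycan of the extracellular matrix, fell from 952.1, 808.0 and 763.4 to 342.6, 275.1 and 283.7 (log2 fold change −1.48, SE 0.19, DESeq2 Padj = 6.05e-12).

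**Figure D4:**
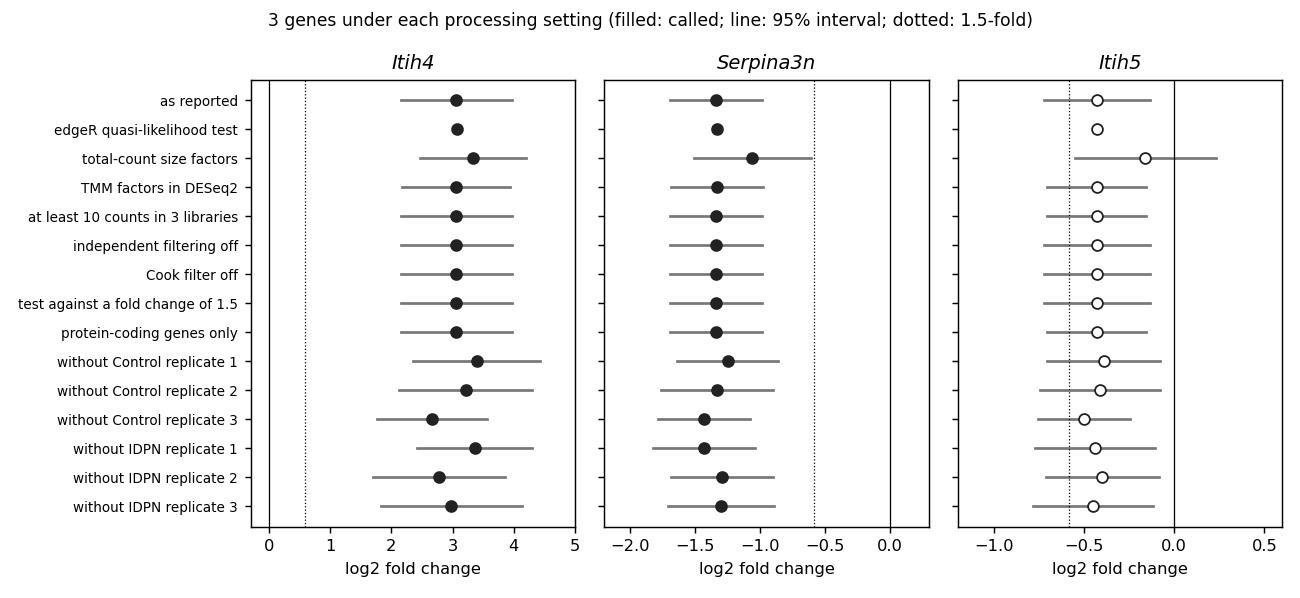
Log2 fold change (horizontal axis, IDPN over Control) of Itih4, Serpina3n and Itih5 as reported and under each of the 14 alternative settings (rows), with 95% intervals where the fit gives a standard error. Filled points were called. Itih4 runs from 2.66 to 3.39 and Serpina3n from −1.43 to −1.06, filled in every row, and Itih5 from −0.50 to −0.16, open in every row.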

How the data were processed

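RNA of 3 Control and 3 IDPN libraries, 1 per animal, was sequenced after SMART-seq2 cDNA synthesis. The authors aligned paired reads with STAR (2.5.3a) to GRCm38 and quantified genes with RSEM (2.3.0) with a GENCODE gene set. What was deposited are RSEM's estimated counts, also called expected counts, as whole numbers that were neither normalized nor filtered. Total counts of 40474847 to 43566332 per library make 3 counts equal to 0.0689 to 0.0741 CPM. Without molecular identifiers, intervals from counts cover counting error only.

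The DESeq2 (1.42.0, R 4.3.3) Wald test, without covariates and scaled by median-of-ratios size factors, was fitted to all genes, after the study's methods, which give its thresholds (adjusted p under 0.05, fold change above 1.5). The edgeR (4.0.16) quasi-likelihood test was an alternative, as were other size factors, filters, gene sets, a test against a fold change of 1.5 and leaving out each library. The code was tested on simulated data. TPM were computed from the counts with the merged exon length of each gene in GENCODE M21 (GRCm38), which also gave coordinates. Promoters came from RefSeq (GRCm38.p6), where 6 of the 8 genes had an entry. Summed markers were compared by two-sided exact permutation tests (scipy 1.17.1).

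The 8 genes, the gene lists (positive and negative acute phase, inducing signals, hyaluronan partners, iron handling, protease targets and receptors, and cell type markers) and the tests were chosen with earlier results of these data known. All 8 genes were named. From each list the called genes and a fixed set of inducers, receptors and partners were named. Lbp, Serping1, C4b, Trf, Rbp4, Fetub, Apoa1, Igfbp3, Itih2, Itih3, Serpina3g, Junb and Ttr were added after their values were seen. Replicates were separate animals, numbered in accession order.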

Additional observations from a re-analysis of the deposited data

How the results depend on the processing

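The count of the 8 genes called, 1 upregulated and 1 downregulated, was the same in all 14 alternatives, and no log2 fold change of a called gene changed sign. The counts over all genes depended on the setting. The 410 upregulated genes became 166 with edgeR and 34 when tested against a fold change of 1.5, and lay between 234 and 611 when a library was left out (Control 1 left out gave 243, Control 2 gave 246, IDPN 2 gave 234 and IDPN 3 gave 265). The 604 downregulated genes became 357 with edgeR, 214 under total-count scaling and 111 when tested against a fold change of 1.5, and lay between 436 and 720 when a library was left out. The cause was not tested. Of 288 counts of called genes in the lists under an alternative, 60 moved by over 1.5 times or moved away from 0. Most lists had few calls, where a change of 1 gene was enough. Of 84 log2 ratios of summed markers, an alternative chosen after seeing the data, 2 moved by more than the replicate spread (HC −0.29 and supporting cells −0.41, under total-count scaling). No paired analysis was made, because the groups were separate animals and the labels give no matching between them. Depth limits Saa3, Hp and Orm1, for which no difference could be detected.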
